A study of Mus musculus with 14 samples.

Results

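The libraries described here are the 7 of the series' 14 small RNA libraries that came from mouse macrophages stimulated with interleukin 4 (IL4): 4 libraries of exosomes from the culture supernatant and 3 libraries of cell lysates. The labels do not say whether exosomes and lysates came from the same cultures. They were chosen by their titles, which name IL4 and the compartment. The series also holds 4 exosome and 3 lysate libraries of control (wild type) macrophages, which enter the fit and serve as the comparison for the IL4 pair. The labels give bone marrow as the source and excised bone as the tissue, and describe the treatment only as stimulated macrophages. No dose, time, strain or age of the mice is given. Nothing in the labels ties a replicate to an animal or a culture of its own, so every p-value here measures spread among libraries, and that spread may be technical only. Exosomes were purified from cleared supernatant on a density gradient, and the libraries were made with a NextFlex small RNA kit.

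Exosomes are small vesicles that form inside endosomal compartments and are released when these fuse with the plasma membrane. They carry microRNAs (miRNAs), short RNAs that pair with messenger RNAs mainly through bases 2 to 8 of the miRNA, the seed. The IL4 signal drives macrophages towards an alternatively activated state in which genes of the mannose receptor and of lipid metabolism are induced. Comparing an exosome library with a lysate shows which miRNAs take a larger or smaller share of the vesicles' small RNA than of the cells'.

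The 4 exosome libraries held 50032, 74646, 411671 and 76729 counts in replicates 1 to 4, and the 3 lysate libraries 5852831, 3941480 and 5137200. A single count was therefore worth 19.99, 13.4, 2.43 and 13.0 CPM (counts scaled to the library's own total) in the exosomes, against 0.171 to 0.254 CPM in the lysates. Each library carries a date in its title, and no date is shared between an exosome and a lysate library, so compartment and date cannot be told apart. Levels below are CPM. Differences are log2 fold changes, exosome over lysate, from edgeR's quasi-likelihood fit of all 14 libraries after TMM scaling, with Benjamini-Hochberg adjusted p-values over all tested lines. A line of the count table is 1 mature miRNA, or 2 that the table joins under 1 name, and it is called where the adjusted p is 0.05 or less. CPM and TMM do not share a scale: the median difference over all tested lines was -0.01 after TMM scaling and 0.68 when libraries were scaled by their totals alone, so a line can have equal CPM in both compartments and a negative log2 fold change.

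The sequences of the miRNAs on which the account turns are given here, 5′ to 3′, from RefSeq (GRCm38.p6), with the seed in capitals. The first set is nearly absent from the lysates and abundant in the exosomes.
miR-451a: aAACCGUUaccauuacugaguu
miR-126a-3p: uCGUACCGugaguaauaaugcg
miR-10b-5p: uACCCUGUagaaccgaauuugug
miR-411-5p: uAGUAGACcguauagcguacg
miR-379-5p: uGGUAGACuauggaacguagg
miR-203-3p: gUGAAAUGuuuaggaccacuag
miR-203b-5p: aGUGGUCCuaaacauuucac
miR-205-5p: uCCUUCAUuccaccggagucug
The second set is lower in the exosomes than in the lysates and includes the most abundant line of both compartments.
miR-511-3p: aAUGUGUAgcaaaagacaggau
miR-34a-5p: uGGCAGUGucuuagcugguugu
miR-146b-5p: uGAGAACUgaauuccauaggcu
let-7i-5p: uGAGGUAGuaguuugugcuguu
miR-21a-5p: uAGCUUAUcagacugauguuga
The third set shares a seed with a miRNA that differs the other way or is not called, and is used further on to compare members of a seed family.
miR-10a-5p: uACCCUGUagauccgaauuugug
miR-99a-5p: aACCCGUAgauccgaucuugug
miR-100-5p: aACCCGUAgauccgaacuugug
miR-130a-3p: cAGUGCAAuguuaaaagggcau
miR-130b-3p: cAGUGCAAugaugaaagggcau
miR-301a-3p: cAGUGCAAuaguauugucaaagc
miR-146a-5p: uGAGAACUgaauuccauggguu

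Of 338 tested lines, 166 were called between IL4 exosomes and IL4 lysates (49.1%). Of these, 64 were lower in the exosomes (18.9% of the tested lines) and the remainder higher (30.2%). The rises were large and mostly on miRNAs that were scarce in the cells: the median log2 fold change of the called rises was 6.20, and 75 of them had a mean under 10 CPM in the lysates, against 27 at or over that level. The falls were small and spread over abundant miRNAs, with a median of -1.28. Among the 57 lines with a mean of at least 1000 CPM in both compartments, 27 were called lower and 5 higher, and all log2 fold changes lay between -1.56 and 1.30. The 5 abundant rises were let-7b-5p, let-7d-3p, miR-30a-5p, miR-320-3p and miR-423-3p, of which let-7d-3p kept its call with TMMwsp factors. Without IL4 lysate replicate 3 the adjusted p was 0.0525 for let-7b-5p, 0.0603 for miR-30a-5p and 0.0613 for miR-423-3p (edgeR), and miR-423-3p was also not called without exosome replicate 1 or control lysate replicates 1 or 2 (adjusted p up to 0.0703). In CPM, all exosome libraries lay above all lysate libraries for 97 lines (28.7%) and below them for 26 lines (7.69%).

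The count of rises leans on how lines entered the test, and the count of falls on the scaling and, for a small part, on entry too. A line passed the filter when at least 3 libraries reached 32.7 CPM, and 126 of the tested lines did not reach it in 3 of the 6 IL4 and control lysates. They passed through the exosomes, and 84 of the called rises are among them. In turn, 14 tested lines reached that level in fewer than 3 IL4 and control exosome libraries, and 6 of these were called lower. Among the 212 lines that 3 or more lysates carried at that level, 18 were called higher (8.49%) and 62 lower (29.2%). This class is itself chosen by lysate level. With at least 5 counts required in 3 libraries of each compartment, 63 of 256 lines were higher and 55 lower. As 5 counts are worth far more CPM in an exosome library than in a lysate, that filter also favours rises among lines scarce in the lysates. Scaling by library totals gave 127 higher and 12 lower, and leaving out IL4 lysate replicate 1 or 2 reduced the falls to 40 or 32.

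**Figure D1:**
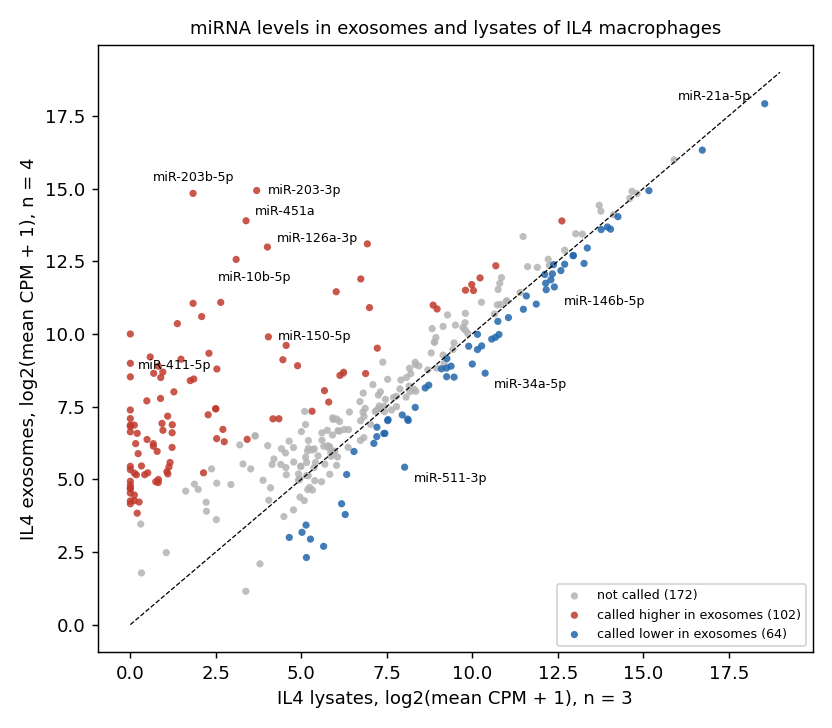
Mean level of each of the 338 tested lines in the 3 IL4 lysates (x axis) and the 4 IL4 exosome libraries (y axis), both as log2(mean CPM + 1), with the dashed line marking equal CPM. The called rises (red, 30.2% of the lines) lie mainly at the left edge, where lysate levels are lowest, and the 64 called falls (blue) run along and just under the line.

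At equal depth the exosomes held more kinds of miRNA. When each IL4 library was thinned at random to 50032 counts, 378, 389, 375 and 343 lines kept a count in the exosomes and 291, 286 and 269 in the lysates. The means were 371 ± 19.8 (SD, n = 4) and 282 ± 11.5 (SD, n = 3), with no overlap (exact permutation test, two-sided, p = 0.0286, the smallest that 4 against 3 libraries allow). Without thinning the order was the opposite, with 364 to 499 lines in the exosomes and 763 to 801 in the lysates. The 10 most abundant lines of each library took 63.7%, 60.6%, 61.3% and 59.8% of the exosome counts and 70.4%, 72.8% and 75.2% of the lysate counts, a difference of -11.5 percentage points (exact permutation test, two-sided, p = 0.0286). In both compartments the leading line was miR-21a-5p.

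miRNAs listed as markers of other cell types were among the largest rises, and the erythroid ones were even across the exosome libraries. miR-451a, which is processed by Argonaute 2 without Dicer and is the main miRNA of red cells, was at 13711, 14388, 19571 and 13137 CPM in the exosomes and at 5.64, 15.5 and 7.20 CPM in the lysates. The groups were far apart and the exosome libraries close together, and the log2 fold change was 9.93 (SE 0.56; adjusted p = 1.2e-08, edgeR). Its mature sequence lies on chr11:78073186-78073207 (plus strand), in no other annotated gene and next to miR-144. The line that joins miR-486a-5p with miR-486b-5p, also of red cells, held 7395 to 9748 CPM in the exosomes and 110 to 142 CPM in the lysates (log2 fold change 5.50, SE 0.39). Both arms of miR-144 were called higher too, at 7.62 for miR-144-3p and 9.33 for miR-144-5p. Left-out lysates moved 3 of these values, miR-451a to 10.70 without replicate 2, miR-144-3p to 8.63 without replicate 1 and miR-144-5p to 10.29 without replicate 3. All 4 tested erythroid lines were thus higher, against 30.2% of all tested lines, but 3 of them passed the filter through the exosomes, so that count describes how they entered. Together they took 2.18%, 2.52%, 3.05% and 2.30% of the exosome counts against 0.0120% to 0.0152% of the lysate counts.

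miR-126a lies within Egfl7, a gene of blood vessel cells, and is an endothelial miRNA. miR-126a-3p was at 3238, 11173, 12442 and 5643 CPM in the exosomes and at 25.8, 10.1 and 9.34 CPM in the lysates (log2 fold change 8.43, SE 0.68, adjusted p = 3.88e-07, edgeR). Without lysate replicate 1 the value of miR-126a-3p was 9.02. Its other arm followed at 7.98 (SE 0.58). In both arms exosome replicates 2 and 3 were the high ones. miR-150-5p, a lymphocyte miRNA, was at 760, 1045, 1370 and 639 CPM in the exosomes and 10.3, 20.04 and 15.96 CPM in the lysates (5.20, SE 0.58). miR-10b-5p, which lies between Hox genes on chr2:74726074-74726096 (plus strand, in introns of Hoxd3 and Hoxd4), rose from 5.06 to 12.4 CPM in the lysates to 2638 to 10338 CPM in the exosomes (8.89, SE 0.84; 9.69 without lysate replicate 2).

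Epithelial miRNAs were high in the exosomes and uneven between them. miR-203-3p, a skin miRNA, was at 100436, 6658, 197 and 17803 CPM in exosome replicates 1 to 4 and at 15.4, 12.7 and 7.79 CPM in the lysates. The groups did not overlap, but the highest and the lowest exosome library differed more than the lowest did from the lysates (log2 fold change 10.91, SE 2.13, adjusted p = 0.00093, edgeR). Without exosome replicate 1 it was 8.78. miR-205-5p, from stratified epithelia, was at 3738, 93.8, 4.86 and 248 CPM and had no count in any lysate. Its mean was at least 5082-fold higher than the level of 3 counts over the 3 lysates (0.201 CPM), but at least 574-fold without exosome replicate 1, and its call was lost when all libraries were thinned to 1 depth (adjusted p = 0.0769). The miR-200 family was not called, with 39.1 to 121 CPM of miR-200a-3p in the exosomes and 32.1 to 38.3 CPM in the lysates. Of 6 tested epithelial lines 3 were higher, against 30.2% of all tested lines, and 0 lower. These 3 passed the filter through the exosomes. The list took 19.8%, 1.33%, 0.0488% and 3.56% of the exosome counts. Both the tally and the shares include miR-203-3p and miR-203b-5p, a pair of reverse complements, and without miR-203b-5p 2 of 5 lines were higher and the shares were 10.5%, 0.697%, 0.0360% and 1.81%.

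miR-203-3p and miR-203b-5p need to be read together, because their genes lie on opposite strands of the same stretch, chr12:112130927-112130948 for miR-203-3p (plus) and chr12:112130927-112130946 for miR-203b-5p (minus). Their sequences share a run of 20 bases as reverse complements. miR-203b-5p was at 92801, 6350, 129 and 17503 CPM, close to miR-203-3p in each exosome library. The pair had 6969 and 6513 counts over the exosomes and 180 and 35 over the lysates. Whether counting used the strand is not given in the sources used here. Among other tested lines that are reverse complements over 16 or more bases, exosome counts were unequal in some pairs and closer in others. miR-24-3p and miR-3074-5p had 3892 and 6, and miR-142a-3p and miR-142b 2739 and 16. On few counts, miR-219a-5p and miR-219b-3p had 44 and 36, and miR-299a-3p and miR-299a-5p 29 and 16. Over the lysates these pairs had, in that order, 116245 and 34, 68386 and 549, 12 and 1, and 9 and 0.

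Stromal markers took 0.532% of the exosome counts on average and 0.287% of the lysate counts. Muscle markers took 0.0501% and 0.000729%, and liver and gut markers 0.428% and 0.0322%. The stromal shares include miR-140-3p, at a mean of 2747 CPM in the exosomes and 2701 CPM in the lysates. miR-143-3p, of smooth muscle and fibroblasts, was at 1459, 2760, 2325 and 1121 CPM in the exosomes and 330, 37.0 and 12.3 CPM in the lysates (3.50, SE 0.81). Lysate replicate 1 stood above the others, and without it the value of miR-143-3p was 5.63. The joined line of miR-199a-3p and miR-199b-3p was at 320 to 734 CPM against 9.93 to 50.9 CPM (3.50, SE 0.50). Without lysate replicate 1 the value of miR-199a-3p=miR-199b-3p, as the table joins them, was 4.14. Of the stromal lines 4 of 5 were higher, against 30.2% of all tested lines. The exception, miR-140-3p, had -0.66 (adjusted p = 0.0557, edgeR), and 0.026 on the log2 scale under library total scaling. Of the stromal rises 3 passed the filter through the exosomes. Of the 2 stromal lines at the filter level in 3 or more lysates 1 was higher. Of 3 muscle lines 2 were higher, led by miR-1a-3p at 287 to 600 CPM against 3.59 to 6.85 CPM. All 3 passed the filter through the exosomes, so that count describes how they entered. The liver miRNA miR-122-5p was at 1979, 7676, 4198 and 1329 CPM in the exosomes and 2.90, 281 and 33.3 CPM in the lysates (4.33, SE 1.41), so lysate replicate 2 stood well above the other two. Without that library the value of miR-122-5p was 7.07, without exosome replicate 4 it was 4.93, and without lysate replicate 3 its adjusted p was 0.0622 (edgeR). It was the only one of 3 tested liver and gut lines called, with 0.42 for miR-192-5p (called under library total scaling, at 1.17) and 0.18 for miR-194-5p. All 3 were at the filter level in 3 or more lysates, where 8.49% of lines were higher.

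Over the 7 lists of markers of other cell types, 24 lines were tested. Of them 17 were higher and 0 lower, against 30.2% and 18.9% of all tested lines. Of these lines 15 did not reach the filter level in 3 lysates, and 14 of the rises are among them, so that count describes how they entered. Of the 9 lines that 3 or more lysates carried at that level, 3 were higher. The listed lines made up 23.2%, 6.99%, 5.97% and 7.20% of the exosome counts and 0.418%, 0.342% and 0.305% of the lysate counts. Without miR-203b-5p the exosome shares were 13.9%, 6.35%, 5.96% and 5.45%, and without the whole epithelial list 3.37%, 5.65%, 5.92% and 3.63%. Among these markers only miR-205-5p was at 0 in every lysate, and 0 were at 0 in every exosome library. The 8 miRNAs listed for macrophages and myeloid cells took similar shares of both, 1.84% to 2.51% of the exosomes and 1.87% to 2.31% of the lysates. In these bulk libraries a smaller number of cells or vesicles of a kind and less RNA in each cannot be told apart. The part of these markers in the other differences was not tested.

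**Figure D2:**
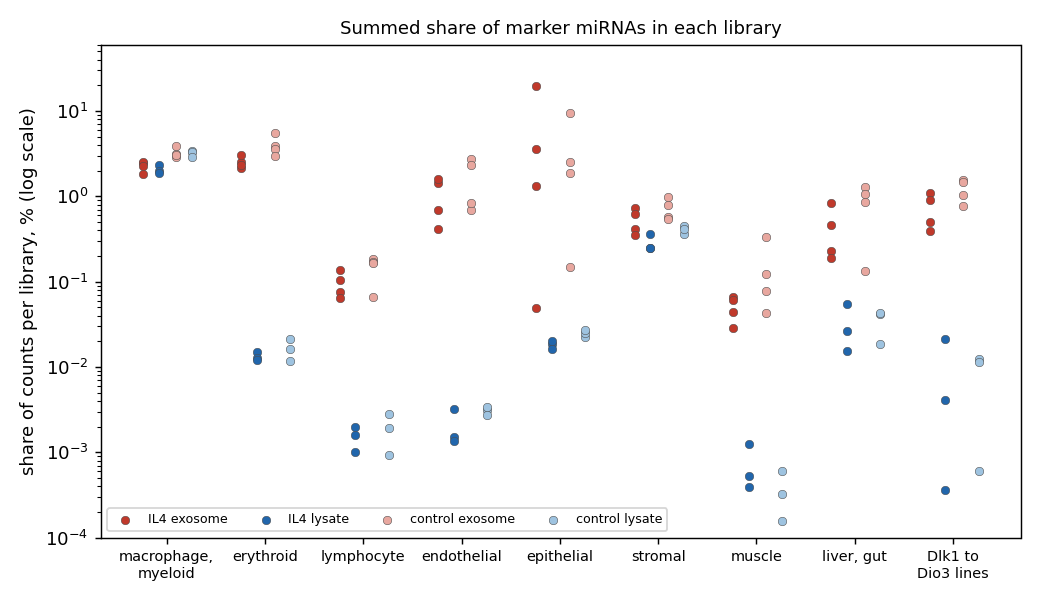
Share of each library's counts (percent, log axis) taken by the macrophage list, by 7 lists of markers of other cell types and by the lines between Dlk1 and Dio3. Each point is 1 library, IL4 or control. The macrophage list sits near 2% in both IL4 compartments and at 2.87% to 3.92% in the control libraries. The erythroid list is at 2.18% to 3.05% in the IL4 exosomes and at or under 0.0152% in the IL4 lysates.

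The imprinted region between Dlk1 and Dio3, chr12:109452823-110281097 (GRCm38), holds a large cluster of miRNAs that are expressed from the maternal chromosome, mainly in embryo, placenta and brain. The table has 59 lines from it, 37 of them without a count in the IL4 lysates. The 28 that were tested were all called higher, against 30.2% of all tested lines, but only 1 of the 28 had 3 or more lysates at the filter level, so that count describes how they entered. Their median log2 fold change was 6.90, or 6.70 with the 10 lines that had no lysate count set at the bound that 3 counts over the lysates give. Among those 10 are miR-299a-5p and miR-299b-5p, which share 21 bases. Each had 16 exosome counts, so these lines may hold the same reads. With at least 5 counts required in 3 libraries of each compartment, 10 lines of the region were tested and all 10 were higher. Over all lines, 63 of 256 were higher under that filter. As 5 counts are worth far more CPM in an exosome library than in a lysate, this count too describes how the lines entered. The region took 0.392%, 1.09%, 0.909% and 0.503% of the exosome counts and 0.000359%, 0.0213% and 0.00417% of the lysate counts.

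miR-411-5p was the most abundant line of the region with no lysate count. It was at 280, 710, 646 and 391 CPM in the exosomes, 363 counts in all, and at least 2522-fold over the lysate floor. The sequence printed above lies on chr12:109710190-109710210 (plus strand). miR-379-5p, whose gene lies just upstream on chr12:109709065-109709085, was at 180, 656, 651 and 404 CPM against 0, 1.52 and 0.779 CPM (8.52, SE 1.02, adjusted p = 1.62e-05, edgeR; 9.59 without lysate replicate 2). miR-369-3p was the highest of the region on average, at 2797 ± 1725 CPM (SD, n = 4) against 63.9 ± 81.5 CPM (SD, n = 3), with a log2 fold change of 4.62 (SE 1.22; 6.67 without lysate replicate 2). miR-127-3p, an miRNA antisense to Rtl1, was at 220, 522, 442 and 156 CPM against 0, 7.10 and 0 CPM. As the shares of the region show, lysate replicate 2 held more of these miRNAs than the other lysates.

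Of 11 tested lines of miRNAs known as released from cells or circulating in blood, 7 were higher and 1 lower. Over all tested lines the shares were 30.2% and 18.9%. Of the rises, 3 passed the filter through the exosomes, and the list repeats erythroid lines described above. It also holds miR-423-5p, at 1459, 3939, 2857 and 3349 CPM against 1229, 777 and 668 CPM (1.05, SE 0.26). Other large rises belonged to no list. miR-5108 was at 780, 281, 53.4 and 352 CPM in the exosomes with no lysate count, at least 1824-fold over the floor. miR-7032-3p, from an intron of Hip1r, was at 240, 214, 46.2 and 39.1 CPM (at least 671-fold). The neuronal miRNA miR-153-3p, from an intron of Ptprn2, was at 300, 0, 51.0 and 313 CPM (at least 826-fold), and miR-219c-3p at 160, 13.4, 0 and 274 CPM (at least 556-fold). miR-219c-3p is the reverse complement of miR-219a-5p over 20 bases and shares 20 with miR-219b-3p, which had 44 and 36 exosome and 12 and 1 lysate counts, so reads of the 3 may not be separate. Leaving out 1 exosome library moved these bounds to as little as 1139-fold for miR-5108 and 497-fold for miR-7032-3p (without replicate 1), and 582-fold for miR-153-3p and 288-fold for miR-219c-3p (without replicate 4). miR-153-3p and miR-219c-3p each lacked a count in 1 exosome library, replicate 2 for miR-153-3p and replicate 3 for miR-219c-3p, and were called nonetheless. In miR-5108, as in miR-203-3p and miR-205-5p, exosome replicate 3 was the lowest, and it is also the deepest.

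**Figure D3:**
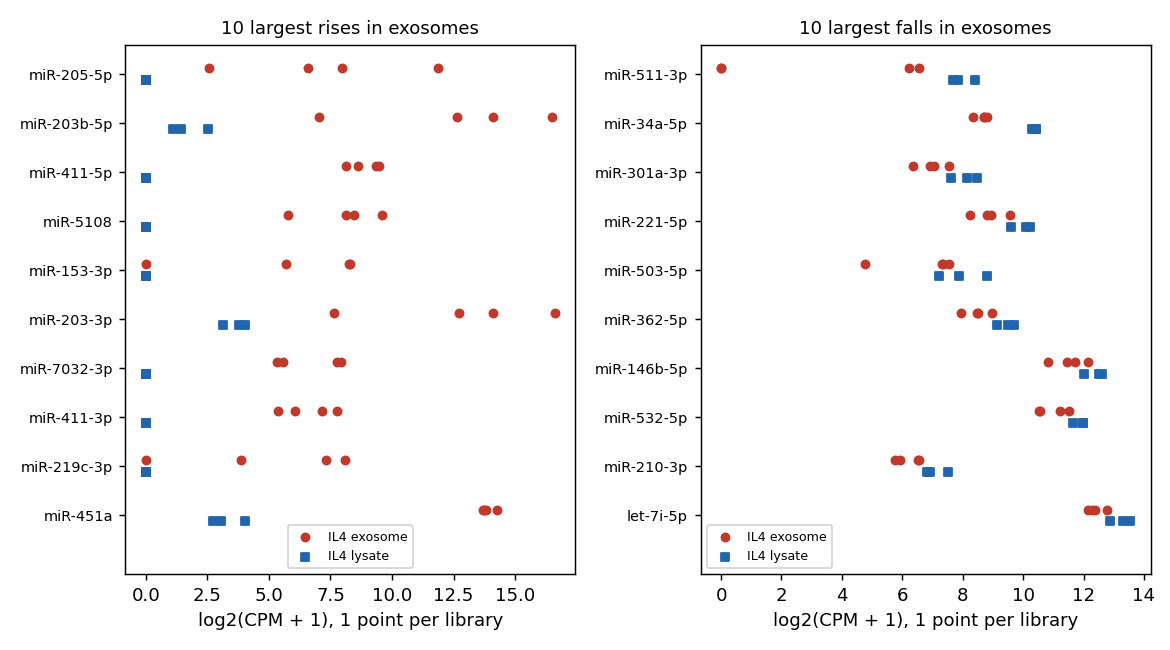
Level of the 10 largest rises (left) and the 10 largest falls (right) in each IL4 library, as log2(CPM + 1), with circles for the 4 exosome and squares for the 3 lysate libraries. Exosome libraries of miR-205-5p and the miR-203 lines are spread wide, those of miR-451a and miR-34a-5p lie close together, and miR-511-3p has 2 exosome libraries at 0.

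The 10 largest falls, like the 10 largest rises, were taken among called lines with a mean of at least 100 CPM in the compartment where they were higher. The first of them was miR-511-3p, a miRNA of alternatively activated macrophages that lies in an intron of Mrc1, the mannose receptor gene, on chr2:14261051-14261072 (plus strand). It was at 0, 93.8, 72.9 and 0 CPM in the exosomes and at 340, 231 and 206 CPM in the lysates. All exosome libraries were below all lysates (log2 fold change -3.11, SE 0.63, adjusted p = 0.00116, edgeR). The exosomes held 37 counts of it in all and the lysates 3956. Its 5p arm was at 13.0 to 80.4 CPM against 42.6 to 71.4 CPM and was not called (-1.41, adjusted p = 0.0877).

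The next was miR-34a-5p, a p53-induced miRNA on chr4:150068473-150068494 (plus strand). It was at 320, 415, 449 and 417 CPM in the exosomes and 1369, 1256 and 1360 CPM in the lysates. Both groups were tight and separate, with means of 400 ± 56.0 and 1328 ± 62.5 CPM (SD, n = 4 and 3) and a difference of -2.43 (log2 scale; SE 0.27; adjusted p = 8.14e-06, edgeR). It kept its call under all 24 alternatives tried, library total scaling included (-1.72).

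miR-21a-5p, induced in activated macrophages and the leading line everywhere, was at 201631, 296144, 297526 and 194855 CPM in the exosomes and 324411, 394399 and 434973 CPM in the lysates. The exosome libraries were all lower, at -1.38 on the log2 scale (SE 0.25; adjusted p = 0.000551, edgeR) and of -0.64 when scaled by library totals. Its gene lies within an exon of Vmp1 on chr11:86584120-86584141 (minus strand). let-7f-5p, the next most abundant line on average in both compartments, was at 61221 to 118521 CPM in the exosomes and 93530 to 129257 CPM in the lysates.

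Further falls among the 10 largest were of miR-301a-3p (-1.72, SE 0.34), miR-221-5p (-1.70, SE 0.36), miR-503-5p (-1.64, SE 0.46), miR-362-5p (-1.63, SE 0.42), miR-532-5p (-1.55, SE 0.22) and the hypoxia miRNA miR-210-3p (-1.51, SE 0.33). Calls for miR-503-5p, miR-362-5p and miR-210-3p were lost under library total scaling, and those for the others were kept. miR-503-5p was also not called without IL4 lysate replicate 1 (-1.15, adjusted p = 0.0902, edgeR). miR-532-5p was at 1499, 2934, 2410 and 1486 CPM against 3999, 4016 and 3217 CPM. let-7i-5p was at 5017, 5332, 4545 and 7090 CPM against 11899, 10140 and 7573 CPM (-1.48, SE 0.24, adjusted p = 0.000283, edgeR), with the highest exosome library just under the lowest lysate.

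Of the 8 lines listed for macrophages and myeloid cells 3 were lower and 1 higher, against 18.9% and 30.2% of all tested lines, with a median log2 fold change of -0.48 against -0.01. All 8 were at the filter level in 3 or more lysates, where 29.2% of lines were lower. miR-223-3p, the main miRNA of granulocytes and monocytes, was at 9854, 11575, 11910 and 11234 CPM in the exosomes and 10654, 8119 and 6230 CPM in the lysates. The groups overlapped, and its log2 fold change of -0.22 (SE 0.19, adjusted p = 0.343, edgeR) was positive under library total scaling (0.42), DESeq2, RLE factors and thinning. The pan-leukocyte miR-142a-3p was at 3378 to 4716 CPM against 3537 to 5664 CPM and was called lower (-0.74, adjusted p = 0.0273), a call that 14 of 24 alternatives did not make. miR-155-5p, induced by NF-kB, was at 180, 375, 459 and 573 CPM against 218, 73.3 and 59.4 CPM and was the single rise of the list (1.22, SE 0.47, adjusted p = 0.0444), not kept in 13 of 24 alternatives; without lysate replicate 1 the value was 1.94.

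Among 9 tested lines of miRNAs known to respond to IL4, 4 were lower and 0 higher, against 18.9% and 30.2% of all tested lines. Their median was -1.003 against -0.01 over all tested lines. Under library total scaling 2 were lower and 1 higher. Of the 9 lines 8 were at the filter level in 3 or more lysates, where 29.2% of lines were lower and 8.49% higher. These 8 hold the 4 falls. miR-146b-5p, which restrains inflammatory signalling, was at 1799, 3389, 4555 and 2802 CPM in the exosomes and 4110, 5849 and 6260 CPM in the lysates (-1.56, SE 0.33, adjusted p = 0.00154, edgeR). Exosome replicate 3 lay above lysate replicate 1. miR-378a-3p, from the Ppargc1b gene, was at 1679, 3684, 4941 and 4588 CPM against 3467, 5414 and 6234 CPM (-1.22, SE 0.33). miR-99a-5p, a repressor of mTOR, was at 4897 to 5767 CPM against 6344 to 6964 CPM (-1.003, SE 0.25). miR-378a-3p and miR-99a-5p were not called under library total scaling, nor was miR-378a-3p without IL4 lysate replicate 2 or 3 (adjusted p = 0.0574 and 0.0917, edgeR). Others of the list were not called: miR-125b-5p had -0.44 (adjusted p = 0.379) and miR-342-3p -0.44 (adjusted p = 0.392). Among 7 tested lines of miRNAs induced by NF-kB, miR-155-5p was higher and miR-21a-5p lower. Among 8 lines of miRNAs that act on cholesterol export, miR-144-3p was higher and miR-26b-5p lower, the latter not under library total scaling nor without IL4 lysate replicate 2 (adjusted p = 0.0559). miR-33-5p, which represses the exporter ABCA1, was at 140, 26.8, 19.4 and 169 CPM against 17.1, 6.09 and 11.3 CPM without being called (2.26, SE 1.02, adjusted p = 0.0807, edgeR), and was called in 5 of 23 alternatives.

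Calls in the large families depended on the scaling, and their tallies are to be read against 18.9% lower and 30.2% higher over all tested lines, or 29.2% and 8.49% over the lines that 3 or more lysates carried at the filter level. Of the 9 let-7 lines, which restrain growth and share the seed GAGGUAG, 5 were lower and 2 higher. Under library total scaling 2 were lower and 2 higher, and under TMMwsp factors 7 were lower and 0 higher. let-7b-5p was at 13971, 11802, 17021 and 17738 CPM in the exosomes and 7278, 6700 and 4916 CPM in the lysates (0.62, SE 0.21, adjusted p = 0.022, edgeR), and let-7e-5p rose by 1.15 (SE 0.44). let-7b-5p was not called without IL4 lysate replicate 3 (adjusted p = 0.0525), nor let-7e-5p without exosome replicates 3 or 4, IL4 lysate replicates 1 or 2 or control lysate replicate 2 (adjusted p 0.052 to 0.0815). let-7g-5p (-1.08), miR-98-5p (-1.31) and let-7i-5p fell, and of these let-7g-5p was not called under library total scaling. Of the 11 lines of the growth-promoting miR-17 to miR-92a clusters 6 were lower and 1 higher, with 0 lower under library total scaling. The 3 falls among miR-221 and miR-222 lines, the 2 of the miR-181 family and the 3 of the miR-15/16 family became 1, 0 and 0 there. Of 10 lines of the miR-23/27/24 clusters 2 were lower and 0 higher, and of 7 miR-29 lines 2 were lower and 0 higher, both with 0 lower under library total scaling. Of 10 lines from the clusters that hold miR-99, miR-125 and a let-7 gene 3 were higher and 2 lower. The falls among these clusters, miR-23/27/24 and miR-29 are near those shares. The rises among the miR-99, miR-125 and let-7 clusters are near the 30.2% over all tested lines only. Of the 8 lines of these clusters that 3 or more lysates carried at the filter level, 2 were higher, against 8.49%. Of 7 miR-30 lines, miR-30a-5p rose (1939, 3416, 5072 and 2854 CPM against 1192, 962 and 882 CPM) and miR-30d-5p fell (-0.93). The rise of miR-30a-5p was not called with TMMwsp factors or without IL4 lysate replicate 3 (adjusted p = 0.0603), nor the fall of miR-30d-5p under library total scaling.

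The miRNAs of the Sfmbt2 intron, a rodent cluster active in placenta, were low throughout, and 3 of 4 tested lines fell (1 under library total scaling). Over all tested lines 18.9% were lower and 30.2% higher. Among lines that 3 or more lysates carried at the filter level, 29.2% were lower and 8.49% higher. That class holds 3 of the Sfmbt2 lines, 2 of them lower. The joined line of miR-669a-5p and miR-669p-5p was at 19.99, 13.4, 34.0 and 0 CPM against 64.1, 84.7 and 65.4 CPM (-2.51, SE 0.63), on 16 exosome counts, and the value of miR-669a-5p=miR-669p-5p was -3.40 without exosome replicate 3. Of 9 lines of the X-linked cluster from miR-532 to miR-500, in introns of Clcn5, 4 were lower and 0 higher (1 lower under library total scaling). All 9 belong to the class with 29.2% lower and 8.49% higher. miR-500-5p was seen in 1 exosome library, at 21.9 CPM, and at 35.04 to 58.1 CPM in the lysates (-2.89, SE 0.86), and was not called under library total scaling or without IL4 lysate replicate 2 (adjusted p = 0.0555, edgeR). Among Drosha-independent miRNAs, miR-320-3p was at 2698, 2880, 3532 and 2411 CPM against 1247, 987 and 912 CPM (0.79, SE 0.22), not called with TMMwsp factors. miR-877-5p had 1.82 (SE 0.49). miR-1981-5p fell (-1.28, SE 0.47, adjusted p = 0.0325, edgeR). That fall was not called in 14 of 23 alternatives, library total scaling and leaving out any IL4 library but exosome replicate 3 among them. Of 6 tested Drosha-independent lines 2 were higher and 1 lower, near the shares over all tested lines. Of the 6, 5 were at the filter level in 3 or more lysates, 2 of them higher and 1 lower. In that class 8.49% of lines were higher and 29.2% lower.

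Members of a seed family did not always differ in the same direction. Among 28 seeds shared by at least 2 tested lines, 4 had calls both ways. In the seed AGUGCAA, miR-130a-3p was higher in the exosomes (67.4 ± 43.2 against 1.33 ± 0.462 CPM, SD, n = 4 and 3; log2 fold change 4.81, SE 1.43; 5.45 without exosome replicate 3), while miR-130b-3p (-1.36) and miR-301a-3p were lower. In ACCCGUA, miR-100-5p rose from 16.9 to 24.3 CPM in the lysates to 117 to 1183 CPM (3.99, SE 0.94), and miR-99a-5p fell. The let-7 seed and CCCUGAG, where miR-125a-5p rose (1.36; 1.95 without lysate replicate 3) and miR-351-5p fell (-0.93), were the others. The falls of miR-99a-5p, miR-130b-3p and miR-351-5p were not called under library total scaling, and that of miR-351-5p in 11 of 24 alternatives. Of the pair with seed ACCCUGU, miR-10b-5p rose, while miR-10a-5p was at 3638, 5372, 4907 and 6999 CPM in the exosomes and 4476, 4911 and 5267 CPM in the lysates, overlapping, and was not called (-0.62; 0.099 under library total scaling). Of the pair with seed GAGAACU, miR-146b-5p fell, and miR-146a-5p was at 729 to 2007 CPM against 305 to 659 CPM without a call (0.74, SE 0.50). All exosome libraries lay above all lysates for miR-146a-5p, and it was called higher under library total scaling (1.35, adjusted p = 0.0406, edgeR). The printed sequences of miR-10a-5p and miR-10b-5p, and of miR-99a-5p and miR-100-5p, differ at 1 position, and those of miR-130a-3p and miR-130b-3p, and of the miR-146 pair, at 2, so counts of these pairs are uncertain where reads could be split between them.

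The median GC content of rises and falls was close, while the share of 3p arms was lower among the falls, and none of these properties was tested. A RefSeq mature sequence was found for 293 of the 338 tested lines. The median GC content was 45.5% in the rises, 44.0% in the falls and 47.6% in all tested lines. The letters GGAG were in 5.95% of the rises, 10.7% of the falls, 7.51% of the tested lines and 12.9% of all lines with a sequence, and GGCU in 8.33%, 17.9%, 11.9% and 13.4%, read on the miRNA's own strand. Of the falls 29.7% were 3p arms, against 49.0% of the rises and 47.3% of all tested lines. Of 74 hairpins with both arms tested, 15 had both arms called in the same direction and 1 in opposite directions: let-7d-5p fell (-0.93), a call lost in 12 of 24 alternatives, and let-7d-3p rose (0.97). The 3p arm made up 29.3%, 34.3%, 30.3% and 21.9% of let-7d counts in the exosomes and 8.94%, 10.1% and 9.32% in the lysates.

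The exosome and lysate libraries of control macrophages gave the background for the IL4 pair. There 172 of 338 lines were called (50.9%), 99 higher (29.3%) and 73 lower (21.6%). Of these, 140 were also called in the IL4 comparison in the same direction, which is 84.3% of the IL4 calls and 81.4% of the control calls, and 0 in the opposite one. The 2 comparisons are not independent: each IL4 library has a control library of the same compartment and date, and the spread was estimated over all 14 libraries. The epithelial list took 9.41%, 2.52%, 0.147% and 1.89% of the control exosome counts in replicates 1 to 4, so the library of the same date as IL4 replicate 1 was the highest there too. miR-451a differed by 9.93 with IL4 and 9.74 in controls, miR-126a-3p by 8.43 and 8.04, miR-511-3p by -3.11 and -2.51, and miR-34a-5p by -2.43 and -2.19.

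When the IL4 difference was tested against the control difference, 0 of 338 lines were called by edgeR (0%) and 0 by DESeq2. At an unadjusted p under 0.05 there were 14 lines, and the lowest adjusted p was 0.857. The line with the lowest p was miR-100-5p, whose exosome rise was 3.99 with IL4 and 8.00 in controls, a difference of -4.01 (SE 1.19). Next came miR-223-5p (0.04 against -1.65, the former negative in 4 of 24 alternatives), miR-27a-5p (-1.78 against -5.27), miR-182-5p (1.84 against -0.18) and miR-8095, which had 4 counts in the IL4 exosomes. The IL4 fall of miR-27a-5p was not called without exosome replicate 4 or IL4 lysate replicates 1 or 2 (adjusted p 0.0561 to 0.0916, edgeR). miR-146b-5p had -1.56 with IL4 and -0.58 in controls, a difference of -0.98 that was not called.

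**Figure D4:**
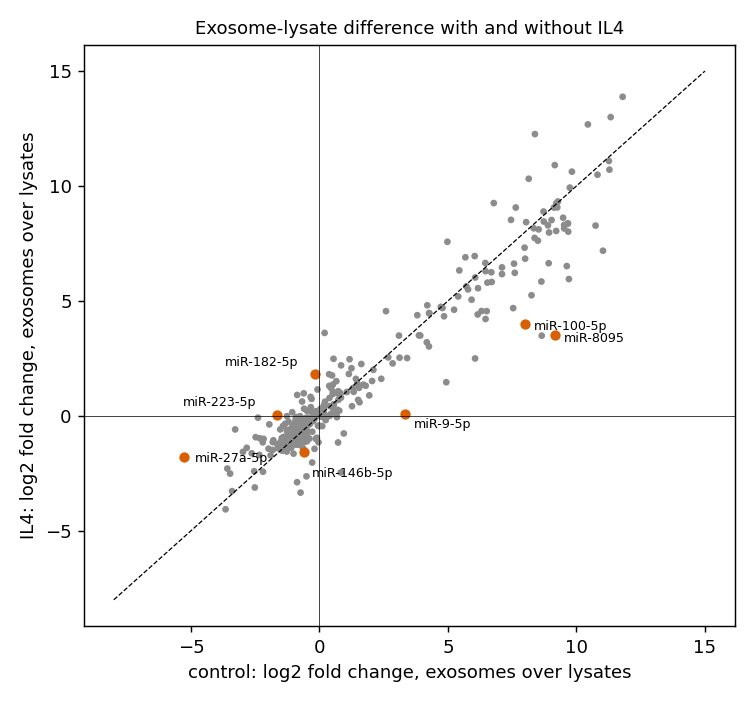
Log2 fold change, exosome over lysate, of each tested line in control macrophages (x axis) and in IL4 macrophages (y axis), with the dashed line marking equal values. Lines lie along the diagonal, and none of the labelled lines off it, such as miR-100-5p at 8.00 and 3.99, was called in the test of the difference.

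The dependence on scaling and filters is shown by the number of calls per setting. Rises numbered from 49 to 160 and falls from 10 to 97 over the settings drawn. DESeq2 called 120 higher and 57 lower, and TMMwsp factors 95 and 81. Thinning every library to 28417 counts left 154 testable lines, of which 49 were higher and 15 lower. Tested against an absolute log2 fold change of 1, 83 rises and 10 falls were called.

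**Figure D5:**
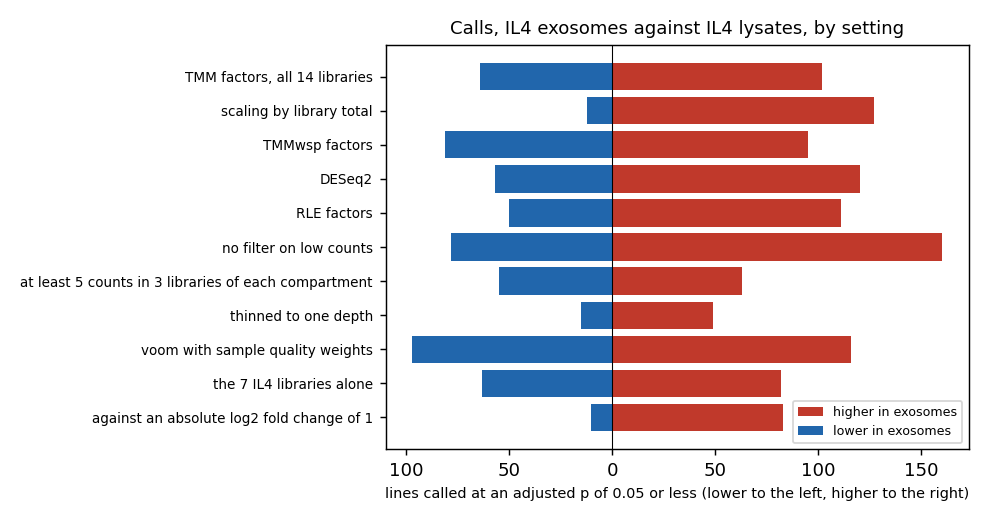
Number of lines called in the IL4 exosome against lysate comparison (x axis), with rises in red to the right and falls in blue to the left, for the main fit and 10 other settings (y axis). The bars for falls are shortest under library total scaling (12) and against a fold change of 1 (10), and the bars for rises exceed those for falls in each setting.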

How the data were processed

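Small RNA was sequenced from exosomes and lysates of IL4-stimulated and control mouse macrophages. The authors deposited raw counts per mature miRNA for 14 libraries in 1 table of 1250 lines, 10 of them joined names. Per the submitters' processing notes, cutadapt and the mm10 build were used, and no source used here names the aligner, the counter, the annotation or the use of strand. Groups, titles and columns were matched by name.

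Members, lists and tests were chosen with earlier results of these data known. Lines were filtered with filterByExpr on 4 groups and fitted with edgeR 4.0.16 (R 4.3.3; TMM, glmQLFit, glmQLFTest, Benjamini-Hochberg, threshold 0.05), checked first on simulated data. Contrasts were IL4 exosomes minus lysates and its difference from the control contrast. SE was taken as the size of the log2 fold change over the root of its F statistic. Exosome totals were 50032 to 411671 and lysate totals 3941480 to 5852831. Where the lysates had no count, folds were set against 3 counts over the group, which covers counting error only. Replicates differed by more than sampling noise: the smallest chi-square per degree of freedom was 22.9 between exosome and 83.9 between lysate libraries. Detection and top-line shares were compared with exact permutation tests over 35 splits. The text names the 10 largest rises and falls with at least 100 CPM in the higher compartment, the most abundant lines, list members, and the 5 lines with the lowest p for the difference from controls; lines named from no list or as seed or arm partners were chosen after their values were seen. Alternatives were DESeq2 1.42.0, limma 3.58.1 (voom with quality weights), TMMwsp, RLE, library totals, other filters, thinning, a fold threshold, the IL4 libraries alone and leaving out each library. Positions and sequences are from RefSeq, and host genes from GENCODE.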

Additional observations from a re-analysis of the deposited data

Results flagged for a closer look

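Among 117 sets of 4 IL4 exosome values checked for 1 library far from the others, 6 stood out (the gap to the nearest library, divided by the whole range, was above Dixon's 95% critical value), and chance marks about 1 in 20 such sets. Exosome replicate 1 held 3738 CPM of miR-205-5p against 4.86 to 248 CPM in the others. In the same library the 7 lists of markers of other cell types took 23.2% of the counts, against 5.97% to 7.20% in the others, and 19.8% of its counts were of the epithelial list. Of that library's counts 10.04% were of miR-203-3p and 9.28% of its reverse complement miR-203b-5p, and without the latter the 7 lists took 13.9%. The control exosome library of the same date was also the highest of its group in the epithelial list, at 9.41%. IL4 exosome replicate 1 also held the lowest level of miR-130b-3p, 259.8 CPM against 391 to 415 CPM in the other IL4 exosome libraries. Exosome replicate 3 had a total of 411671 counts, against 50032 to 76729 in the others, and was the only exosome library with miR-500-5p (21.9 CPM) or miR-8095 (9.72 CPM). Without exosome replicate 1 there were 169 calls, 112 higher and 57 lower, and without replicate 3 there were 141, 89 higher and 52 lower.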

How the results depend on the processing

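The 166 calls between IL4 exosomes and lysates became 64 after thinning to 1 depth and 93 when tested against an absolute log2 fold change of 1, and ranged from 127 to 179 when 1 library was left out; without IL4 lysate replicate 2, 32 lines were lower. Calls were 238 of 1250 lines without a filter, and library total scaling gave 139, of which 114 were among the 166. The test of IL4 against control differences gave 0 calls, also under each library left out (0 to 0) and with the date as a replicate block (0); without a filter it gave 3. No paired analysis was possible because exosomes and lysates of IL4 macrophages share no date. The detection difference of 89.25 lines was -368.5 without thinning, and ranged from 82.8 to 98.7 with 1 library left out; the difference in the share of the 10 leading lines ranged from -12.7 to -10.3. Those designs cannot go below a p of 0.0667 or 0.1. Of 66 called lines named in the text, 31 were called under every alternative that tested them, 24 of them rises, and 19 of the 29 falls but 0 rises lost the call under library total scaling. 0 of the called lines changed sign. Among lines that were not called, signs turned for miR-10a-5p (0.099), let-7c-5p (0.0098), miR-125b-5p (0.21), miR-26a-5p (0.23), let-7a-5p (0.083), miR-140-3p (0.026), miR-27b-3p (0.059) and miR-342-3p (0.39) under library total scaling, for miR-26a-5p (0.019) and miR-125b-5p (0.090) after thinning, for miR-92a-3p with TMMwsp factors (-0.10) and without a filter (-0.16), for miR-223-5p with TMMwsp factors (-0.17), without a filter (-0.22) and without 1 library (-0.17 to 0.39), for miR-194-5p without a filter (-0.025), with voom (-0.099) and without 1 library (-0.018 to 0.60), for miR-342-3p without 1 library (-0.62 to 0.23), and for miR-223-3p under library total scaling (0.42), DESeq2 (0.044), RLE factors (0.045) and thinning (0.29); the cause was not tested. A count in an exosome library is worth 2.43 to 19.99 CPM, so lower levels were not detectable there.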
